A study of Mus musculus with 8 samples.

Results

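The genes examined are the 9 enzymes of pyrimidine and deoxynucleotide synthesis Cad, Dhodh, Umps, Ctps, Rrm1, Rrm2, Tyms, Dut and Tk1, found by symbol among 55487 genes in the count table of muscle stem cells (MuSCs) from aged mice. All 9 had an Ensembl identifier in the table, and all 9 were among the 12060 genes that passed the filter on low counts. MuSCs, the resident stem cells of skeletal muscle, were sorted from old mice by FACS and kept for 72 hours in growth medium with either 1% DMSO as vehicle or nicotinamide plus pyridoxine (NAM/PN), B vitamins for which the labels state 1 mM without a separate value for each. The 8 mice were combined into 4 pools of 2 mice, and each pool was cultured under both conditions, giving 4 libraries per condition. The study used wild-type C57BL/6JRj males, so no transgene or deletion was present in either group. RNA was sequenced from the 3′ ends of transcripts and counted per gene.

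Cells make pyrimidines along the de novo route, in which CAD builds the first ring precursor, DHODH oxidizes it in mitochondria, UMPS forms uridine monophosphate and CTP synthase (Ctps) converts UTP to CTP. Ribonucleotide reductase, made of the subunits RRM1 and RRM2, reduces ribonucleotides to deoxynucleotides, DUT removes dUTP and supplies dUMP, thymidylate synthase (Tyms) methylates dUMP to dTMP, and thymidine kinase 1 (Tk1) recovers thymidine from outside this route. Rrm2, Tyms and Tk1 are known as genes of proliferating cells that are expressed around S phase, and quiescent MuSCs enter the cell cycle when they are cultured in growth medium.

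Reference promoters of 4 of the enzymes are shown because they belong to the enzyme with the largest difference between conditions (Umps), the enzyme whose libraries did not overlap between conditions (Tyms) and the 2 subunits of ribonucleotide reductase (Rrm1 and Rrm2). Each runs from 250 bases before to 50 bases after the annotated start, as given by RefSeq on GRCm38.p6 and read 5′ to 3′ on the strand of the gene. Capitals mark a CCAAT box (CCAAT), a GC box (GGGCGG) or an E box (CACGTG) on either strand.
Umps promoter, chr16:33966989-33967288, minus strand: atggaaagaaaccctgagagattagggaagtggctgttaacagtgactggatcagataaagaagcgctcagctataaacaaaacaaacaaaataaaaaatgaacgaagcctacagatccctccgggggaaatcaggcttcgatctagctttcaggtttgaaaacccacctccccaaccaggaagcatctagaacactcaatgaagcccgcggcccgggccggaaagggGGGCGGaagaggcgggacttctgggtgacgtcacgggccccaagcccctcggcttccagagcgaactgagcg
Tyms promoter, chr5:30073576-30073875, minus strand: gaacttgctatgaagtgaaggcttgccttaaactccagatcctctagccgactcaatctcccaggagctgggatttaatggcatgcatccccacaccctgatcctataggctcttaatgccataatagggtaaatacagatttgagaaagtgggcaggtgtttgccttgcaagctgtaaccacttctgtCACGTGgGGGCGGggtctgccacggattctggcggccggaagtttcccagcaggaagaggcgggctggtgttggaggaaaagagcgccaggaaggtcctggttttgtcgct
Rrm1 promoter, chr7:102441445-102441744, plus strand: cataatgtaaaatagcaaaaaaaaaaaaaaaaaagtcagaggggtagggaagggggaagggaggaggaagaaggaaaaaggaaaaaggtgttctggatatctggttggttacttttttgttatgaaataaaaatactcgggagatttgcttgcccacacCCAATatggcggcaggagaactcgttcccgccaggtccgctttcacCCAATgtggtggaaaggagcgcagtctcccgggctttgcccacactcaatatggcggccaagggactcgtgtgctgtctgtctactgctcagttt
Rrm2 promoter, chr12:24708004-24708303, plus strand: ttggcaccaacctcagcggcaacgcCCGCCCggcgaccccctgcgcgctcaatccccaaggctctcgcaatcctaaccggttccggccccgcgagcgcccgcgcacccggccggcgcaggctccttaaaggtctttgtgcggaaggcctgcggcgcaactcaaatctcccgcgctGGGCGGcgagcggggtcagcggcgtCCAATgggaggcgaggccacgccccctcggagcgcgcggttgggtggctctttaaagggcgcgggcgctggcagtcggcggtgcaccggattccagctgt

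Promoters of the same length were found for 8 of the 9 enzymes, and Dhodh had no entry. A GC box was present in 7 of these 8 genes, all but Rrm1, against 35.7% of all 32851 promoters. The CCAAT box, known as a binding site of NF-Y, was present in Rrm1 and Rrm2 only among the 8, and in 37.4% of all promoters. Rrm1 held it at 91 and at 45 bases before the start and Rrm2 at 50 bases before it. The E box was present in Tyms alone among the 8, at 61 bases before the start and close to a GC box at 54, and in 7.15% of all promoters. None of the 8 held TTTCCCGC, TTTCGCGC, TTTGCCGC or TTTGGCGC, which are forms of the E2F site, on either strand, and 2.26% of all promoters did. Other forms of the E2F site were not searched. These matches describe the letters of a short window and say nothing of which factors act there.

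Each library held 6472484 to 10163101 counts. Levels are given as CPM, counts scaled to a common library size after correction with TMM factors, and the detection floor of 3 counts equaled 0.295 to 0.464 CPM before that correction. The effect of NAM/PN was tested in edgeR's quasi-likelihood model over all 12060 genes, and genes with a Benjamini-Hochberg adjusted p under 0.05 are called changed, which were 1.28% of all tested genes, 0.282% higher and 0.995% lower. Of the 10 MuSC markers examined, 9 passed the filter, with summed levels of 3050 to 3512 CPM in vehicle and 2567 to 3126 CPM in NAM/PN libraries, and 0 of them were called in edgeR's test, 2 with an unadjusted p under 0.05, against 9.28% of all tested genes. Among markers of other cells, 0 of 7 endothelial markers passed the filter, and 2 of 7 fibro-adipogenic markers, 2 of 6 mural markers, 1 of 6 immune markers and 1 of 4 Schwann cell markers passed. Summed levels with vehicle and with NAM/PN were 0 to 6.53 and 0 to 7.25 CPM for endothelial, 154 to 170.1 and 62.1 to 96.4 CPM for fibro-adipogenic, and 40.5 to 88.8 and 33.4 to 50.9 CPM for mural markers. They were 0.979 to 7.58 and 3.502 to 7.14 CPM for immune, and 1.61 to 12.4 and 2.83 to 12.6 CPM for Schwann cell markers. Markers with 0 counts in all libraries were 3 endothelial, 3 fibro-adipogenic, 1 mural, 5 immune and 2 Schwann cell markers. Pdgfra, Lum, Ptprc, Adgre1 and Myh11 were among these. Others had counts, such as Pecam1 (48 in all libraries together), Ly6a (96), Cd68 (282), Cspg4 (1500) and Notch3 (2122). Of the fibro-adipogenic markers, Col3a1, a collagen chain, fell from 155 to 69.2 CPM (adjusted p = 0.00255, edgeR's quasi-likelihood test), while the other tested gene, Smoc2, stood at 4.92 and 5.45 CPM. Of 19 genes of myogenic differentiation, 15 were called lower and 0 higher, and all 19 log2 fold changes were below 0. The median of their log2 fold changes was -2.14, and their summed level was 3262 to 5329 CPM in vehicle and 1084 to 1667 CPM in NAM/PN libraries. The part of these shifts in the results below was not tested.

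None of the 9 enzymes was called, against 1.28% of all tested genes. Adjusted p-values of the 9 lay between 0.685 for Umps and 0.994 for Dhodh in edgeR's quasi-likelihood test, and 0 of 9 had an unadjusted p under 0.05, which 9.28% of all tested genes had. In DESeq2 and in limma's voom fit, 0 of 9 were called as well, against 289 and 232 of the 12060 tested genes. The 9 log2 fold changes were between 0.03 and 0.45, with a median of 0.19, while the median over all tested genes was -0.0022. All 9 were above 0, as were 49.8% of all tested genes. The estimates were precise enough to give a bound, since the 95% interval of each of the 9 lay between a 2-fold fall and a 2-fold rise. The upper bound was a 1.31-fold rise for Rrm2, the narrowest, and a 1.99-fold rise for Umps. In RNA from a whole culture, a change in the share of cells that express a gene and a change in RNA per cell cannot be told apart.

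**Figure D1:**
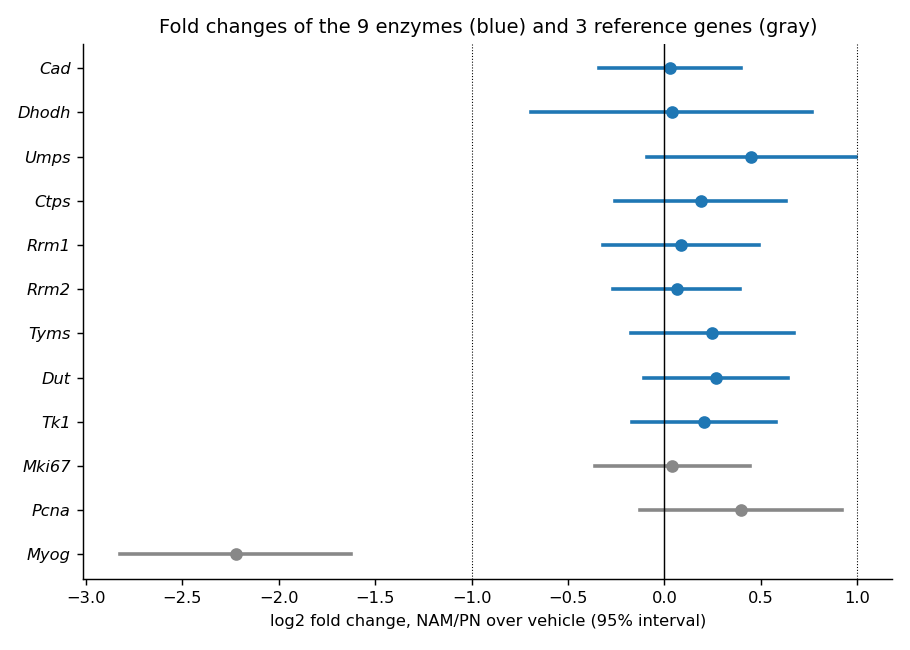
Log2 fold change of each enzyme (blue) with its 95% interval derived from edgeR's quasi-likelihood test, with 4 libraries per condition, and of the reference genes Mki67, Pcna and Myog (gray). Dotted lines mark a 2-fold fall and a 2-fold rise. All 9 blue intervals include 0, and that of Myog lies below a 2-fold fall.

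The pathway begins with Cad (ENSMUSG00000013629, GRCm38 chromosome 5 from 31054780 to 31078479, plus strand), which encodes the 3 first activities of the de novo route in 1 protein. Cad was expressed at 154, 171, 137 and 159 CPM in vehicle pools 1 to 4, and at 152, 192, 145 and 146 CPM in the same pools with NAM/PN. The conditions overlapped, and pool 2 was the highest in both. Means of Cad were 155 ± 14.1 and 159 ± 22.5 CPM (SD over 4 libraries each). Its log2 fold change was 0.03 (standard error 0.18, adjusted p = 0.990 in edgeR's quasi-likelihood test).

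Dhodh (ENSMUSG00000031730, chromosome 8 from 109591343 to 109608673, minus strand) encodes the mitochondrial enzyme of the route and had the fewest counts of the 9, between 105 and 276 per library. Its levels were 23.8, 27.9, 18.6 and 29.4 CPM in vehicle pools 1 to 4 and 27.1, 14.6, 34.9 and 25.8 CPM with NAM/PN. The 2 NAM/PN libraries of pools 2 and 3 were the lowest and the highest of all 8, so that the direction was opposite between pools, with log2 differences of -0.93 in pool 2 and 0.90 in pool 3. The log2 fold change of Dhodh was 0.04 (standard error 0.35, adjusted p = 0.994 in edgeR's quasi-likelihood test), and its 95% interval from -0.69 to 0.77 was the widest of the 9.

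Umps (ENSMUSG00000022814, chromosome 16 from 33954782 to 33967038, minus strand), whose protein joins the last 2 steps to UMP, had the largest difference of the 9. It stood at 60.6, 50.9, 37.2 and 59.6 CPM in vehicle pools 1 to 4 and at 73.0, 54.3, 53.4 and 104 CPM with NAM/PN. Umps was higher with NAM/PN within each of the 4 pools, yet the conditions overlapped, since pools 2 and 3 with NAM/PN lay below pools 1 and 4 with vehicle. The means were 52.1 ± 10.9 and 71.1 ± 23.5 CPM (SD, n = 4 each), and the log2 fold change of 0.45 (standard error 0.26, 95% interval from -0.09 to 0.99) did not pass the test, with an adjusted p of 0.685 in edgeR's quasi-likelihood test. Without NAM/PN replicate 4, which holds its highest level, the log2 fold change of Umps was 0.21. Umps overlaps the antisense gene Gm15829, which had 0 counts in all libraries.

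Ctps (ENSMUSG00000028633, chromosome 4 from 120539868 to 120570276, minus strand) encodes the enzyme that aminates UTP to CTP. Its levels were 96.0, 85.2, 68.9 and 69.3 CPM in vehicle pools 1 to 4 and 106, 82.8, 69.4 and 106 CPM with NAM/PN. Pools 2 and 3 differed little between conditions, and most of the difference came from pool 4, with a log2 difference of 0.61. For Ctps the log2 fold change came to 0.19 (standard error 0.21, adjusted p = 0.912 in edgeR's quasi-likelihood test).

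Ribonucleotide reductase needs both of its subunits, of which RRM1 carries the catalytic and regulatory sites. Rrm1 (ENSMUSG00000030978, chromosome 7 from 102441695 to 102469771, plus strand) was expressed at 215, 237, 178 and 208 CPM in vehicle pools 1 to 4 and at 271, 196, 265 and 157 CPM with NAM/PN. The spread was wider with NAM/PN, with an SD of 55.1 CPM against 24.1 CPM, and the difference was positive in pools 1 and 3 and negative in pools 2 and 4. Its log2 fold change was 0.08 (standard error 0.19, adjusted p = 0.970 in edgeR's quasi-likelihood test). Of the counts in this region, 85 in all libraries together were assigned to Gm45399, a gene of the same strand that overlaps Rrm1, against 14117 to Rrm1.

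Rrm2 (ENSMUSG00000020649, chromosome 12 from 24708241 to 24714146, plus strand) encodes the subunit with the tyrosyl radical, whose abundance is known to limit the enzyme outside S phase. It had the most counts of the 9, between 2633 and 5313 per library. Rrm2 stood at 470.2, 440.5, 366 and 403 CPM in vehicle pools 1 to 4 and at 469, 387, 401 and 496 CPM with NAM/PN, so that the conditions overlapped almost fully. The log2 fold change of 0.06 (standard error 0.16, 95% interval from -0.27 to 0.39, adjusted p = 0.973 in edgeR's quasi-likelihood test) was smaller than the spread between libraries. The ratio of Rrm2 to Rrm1 counts, a comparison chosen after their values were seen, ranged from 1.86 to 2.18 with vehicle and was 1.73, 1.98, 1.51 and 3.16 in NAM/PN pools 1 to 4. Pool 4 with NAM/PN thus had the highest Rrm2 and the lowest Rrm1 level of all 8 libraries.

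Tyms (ENSMUSG00000025747, chromosome 5 from 30058202 to 30073617, minus strand) was the only enzyme of the 9 whose libraries did not overlap between conditions. Its levels were 69.98, 64.8, 54.5 and 69.8 CPM in vehicle pools 1 to 4 and 75.1, 80.0, 76.7 and 75.9 CPM with NAM/PN, higher with NAM/PN in all 4 pools. Of all tested genes, 7.21% were separated in this way, 2.79% upward and 4.42% downward, against 1 of the 9 upward and 0 downward. Umps and Tyms were the 2 enzymes of the 9 that were higher in all 4 pools, as were 8.49% of all tested genes, and 0 of 9 were lower in all 4, against 10.6%. The log2 fold change of Tyms was 0.25 (standard error 0.20, 95% interval from -0.17 to 0.67), and the adjusted p of 0.833 in edgeR's quasi-likelihood test did not pass. The coefficient of variation of the 4 NAM/PN libraries was 2.78%, below the 4.00% that counting alone would give at this depth. The processed pseudogene Tyms-ps had 19 counts in all libraries, against 4696 for Tyms.

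Dut (ENSMUSG00000027203, chromosome 2 from 125247190 to 125258608, plus strand) encodes the dUTPase that keeps uracil out of DNA and makes the substrate of thymidylate synthase. It was expressed at 301, 239, 175 and 218 CPM in vehicle pools 1 to 4 and at 275, 268, 295 and 285 CPM with NAM/PN. Vehicle pool 1 was the highest of all 8 libraries, and the other 3 vehicle libraries lay below all NAM/PN libraries. For Dut the log2 fold change came to 0.27 (standard error 0.18, adjusted p = 0.765 in edgeR's quasi-likelihood test). Its spread was narrower with NAM/PN, with an SD of 11.9 CPM against 52.6 CPM.

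Tk1 (ENSMUSG00000025574, chromosome 11 from 117815526 to 117826092, minus strand), the salvage enzyme of the group, stood at 174, 190.2, 134 and 179.8 CPM in vehicle pools 1 to 4 and at 213, 175, 174 and 219 CPM with NAM/PN. It was higher with NAM/PN in pools 1, 3 and 4 and lower in pool 2. The log2 fold change was 0.20 (standard error 0.18, adjusted p = 0.859 in edgeR's quasi-likelihood test). Afmid, which overlaps Tk1 on the opposite strand, had 69 counts in all libraries, against 12208 for Tk1.

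**Figure D2:**
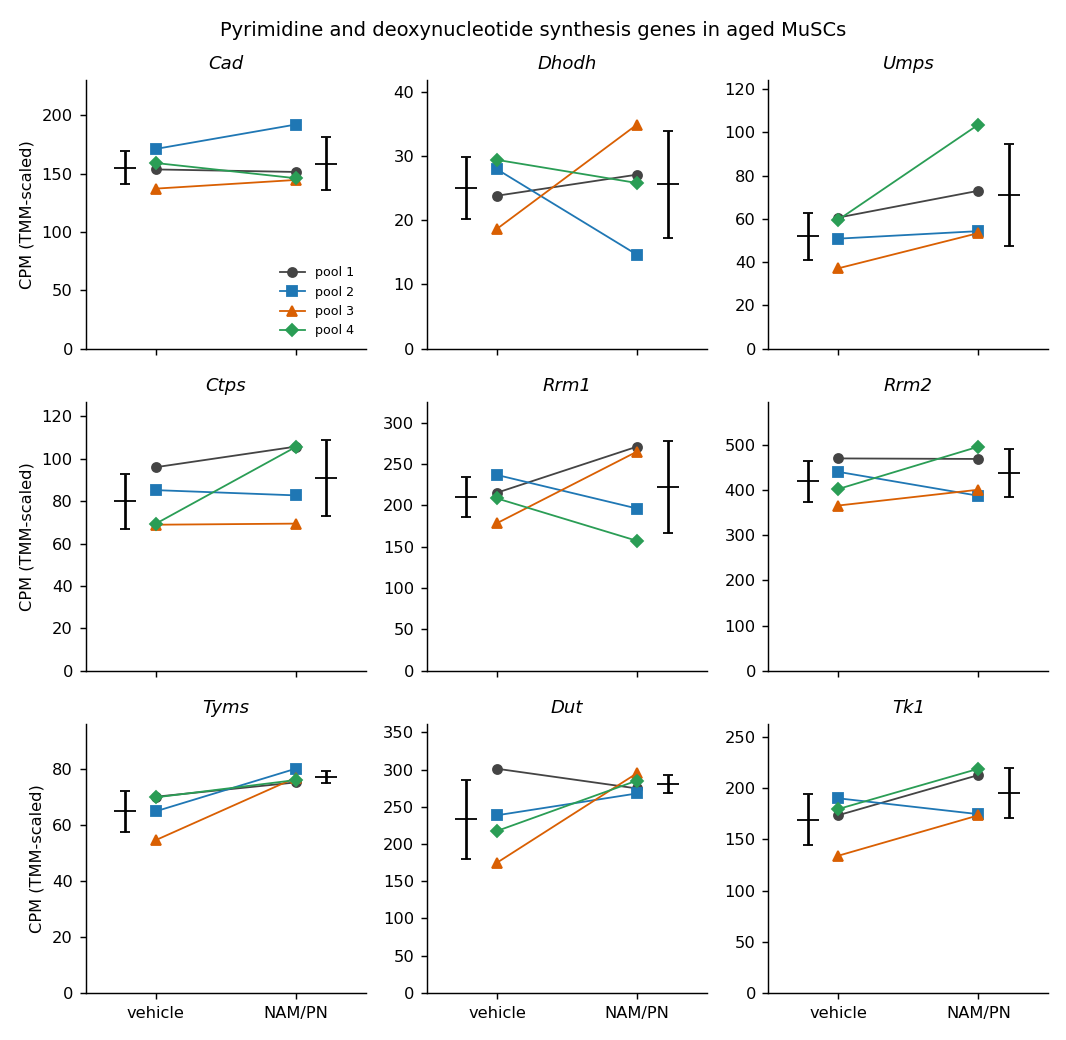
Level of each enzyme transcript in CPM (vertical axis, from 0) with vehicle and with NAM/PN, where lines join the libraries of a pool and bars beside them show the mean ± SD of 4 libraries. Tyms is the panel without overlap between conditions. The pools share 1 direction in Umps and Tyms and differ in direction in the other 7 panels.

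Counting error was small for these genes. It corresponded to coefficients of variation between 1.66% for Rrm2 and 6.94% for Dhodh, whereas the libraries of a condition varied by 2.78% to 33.0%. For 8 of the 9 enzymes, all but Tyms, the spread in both conditions was wider than counting error. These values cover counting error only, since amplified copies of a molecule were not told apart.

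The 9 enzymes shared a low level in vehicle replicate 3, which was the lowest vehicle library for all 9 and the lowest of all 8 libraries for 7 of them. Of all tested genes, 32% had their lowest vehicle level and 17% their lowest level of all 8 in that library. Among the 20 genes of DNA replication and S phase entry these were 10 and 9 genes, and among the 49 tested genes of the rest of the pathway 16 and 11. Summed over the 9, levels were 1564, 1506, 1170 and 1396 CPM in vehicle pools 1 to 4 and 1660, 1450.2, 1514 and 1615 CPM with NAM/PN. Vehicle replicate 3 also had the largest share of counts on the ribosomal RNA gene CT010467.1, 18.7% against 5.22% to 11.6% in the other 7 libraries. Of the counts on all other genes, the 9 enzymes took 0.131% in vehicle replicate 3 and 0.151% to 0.187% in the other libraries. The part of the ribosomal RNA share in the low levels was not tested. Without vehicle replicate 3, 6 of the 9 log2 fold changes were above 0, and the median was 0.10 in place of 0.19. Pool 3 was likewise the only pool in which all 9 were higher with NAM/PN, while 6 were higher in pool 1, 4 in pool 2 and 6 in pool 4.

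**Figure D3:**
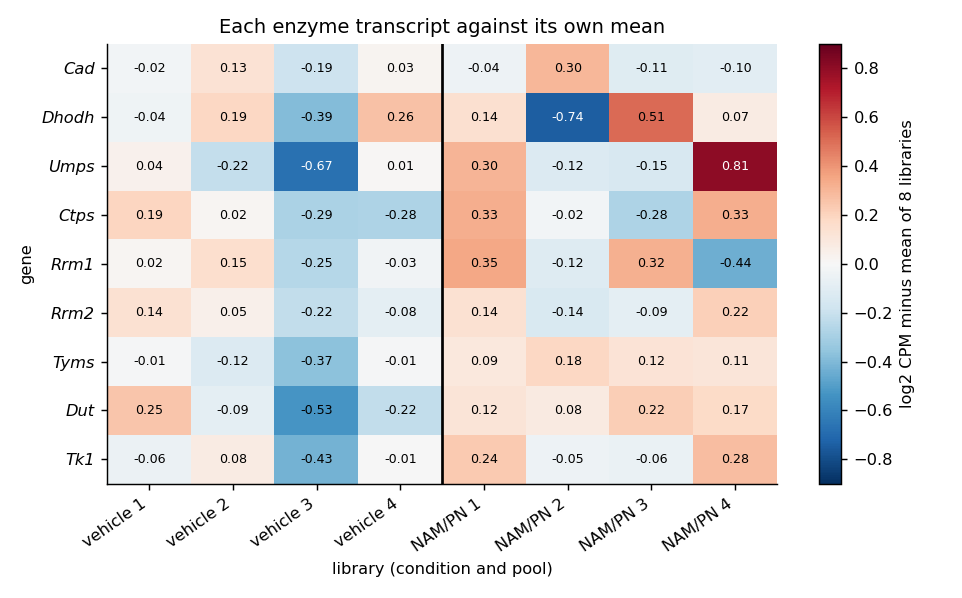
Log2 CPM of each enzyme in each library minus the mean of that enzyme over all 8 libraries, in color and in figures. The column of vehicle replicate 3 is below 0 in all 9 rows, from -0.19 for Cad to -0.67 for Umps, and Umps in NAM/PN replicate 4 is the highest cell at 0.81.

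The enzymes differed in how they varied between libraries. After the mean of each condition was taken off, Umps, Ctps, Rrm2 and Tk1 varied together, with Pearson's r between 0.70 and 0.90 in the 6 pairs over 8 libraries, and between 0.64 and 0.88 without NAM/PN replicate 4. Pairs beyond this group came close, with an r of 0.75 for Tyms and Dut and 0.66 for Rrm2 and Dut. Rrm1 and Rrm2, which form 1 enzyme, had an r of 0.0048, and Cad and Dhodh one of -0.43. Over all 36 pairs of the 9, 30 had a positive r, and the median was 0.36. These values are descriptions from 8 libraries that share depth and normalization, and the group of 4 was picked after its values were seen. Among 5213 other genes whose mean log2 CPM reached 5, the patterns most like the mean standardized level of the 9 enzymes over the 8 libraries were those of Tsen15 (r = 0.98), Cbr3 (0.98), Jagn1 (0.98), Chtop (0.97) and Tmx1 (0.97).

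The other genes of the pathway were 58, of which 49 were tested. None of the 49 was called in either direction, against 0.282% of all tested genes called higher and 0.995% called lower. In edgeR's test 9 of the 49 had an unadjusted p under 0.05, against 9.28% of all tested genes. DESeq2 called 0 of the 49 and limma's voom fit 1, against 289 and 232 of the 12060 tested genes. The median log2 fold change of the 49 was 0.13, and 29 of 49 were above 0.

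Genes of the folate cycle feed thymidylate synthesis. Shmt1, a serine hydroxymethyltransferase that loads folate with the carbon used by thymidylate synthase, stood at 90.8, 44.2, 42.6 and 52.3 CPM in vehicle pools 1 to 4 and at 108, 112, 99.7 and 80.9 CPM with NAM/PN. It was higher in all 4 pools, and the conditions overlapped through vehicle pool 1. Its log2 fold change was 0.80 (standard error 0.25, adjusted p = 0.157 in edgeR's quasi-likelihood test). Shmt1 was called in limma's voom fit (adjusted p = 0.0311) and in edgeR without a filter on low counts (adjusted p = 0.0372). It was also called in edgeR without vehicle replicate 1 (adjusted p = 0.0249), the library through which the conditions overlapped. Shmt1 was not called in DESeq2, with RLE size factors or with the replicate block (adjusted p = 0.106 in edgeR's test). Over the 7 genes of the folate cycle the median log2 fold change was 0.31.

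Dtymk, the kinase that phosphorylates dTMP, stood at 77.7, 62.2, 71.9 and 65.0 CPM in vehicle pools 1 to 4 and at 99.2, 95.03, 84.7 and 133 CPM with NAM/PN. The conditions did not overlap, as for 2.79% of all tested genes in this direction, and the log2 fold change was 0.58 (standard error 0.21, adjusted p = 0.276 in edgeR's quasi-likelihood test). Dctpp1, which hydrolyzes modified deoxycytidine triphosphates, did not overlap either, at 93.7 to 124 CPM in vehicle and 130.5 to 238 CPM in NAM/PN libraries (log2 fold change 0.62, adjusted p = 0.215 in edgeR's quasi-likelihood test). Nudt1, which removes oxidized nucleotides from the pool, had a log2 fold change of 0.83 (adjusted p = 0.162 in edgeR's quasi-likelihood test) and was lower with NAM/PN in pool 1. Of these 3, NAM/PN replicate 4 had the highest level of Dtymk and Dctpp1.

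In the remaining groups no gene passed either. The uridine-cytidine kinases Uck1 and Uck2 had log2 fold changes of 0.72 and 0.31, and the nucleotidases Nt5c3b and Nt5c3 of 0.75 and 0.59, with adjusted p-values from 0.416 to 0.777 in edgeR's quasi-likelihood test. The nucleoside diphosphate kinase Nme2 had at most 42 counts in a library, and reads can be split between it and the closely similar Nme1, so that its log2 fold change of -2.34 (standard error 1.68) is uncertain. E2f1 and E2f2, transcription factors of the G1 to S transition, had log2 fold changes of 0.38 and -0.28. The mitochondrial pyrimidine carrier Slc25a36 had a log2 fold change of -0.47.

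Slc29a1, the equilibrative transporter that carries nucleosides such as uridine and thymidine across the plasma membrane, had a lower mean with NAM/PN, 91.9 against 143 CPM. It stood at 162, 147, 61.0 and 201 CPM in vehicle pools 1 to 4 and at 78.9, 103, 102 and 83.3 CPM with NAM/PN. With vehicle replicate 3 below all NAM/PN libraries, the log2 fold change was -0.64 (adjusted p = 0.434 in edgeR's quasi-likelihood test). Without that library it was -0.89 with an adjusted p of 0.0220, and without pool 3 it was -0.95 with an adjusted p of 0.0453, in the same edgeR test.

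**Figure D4:**
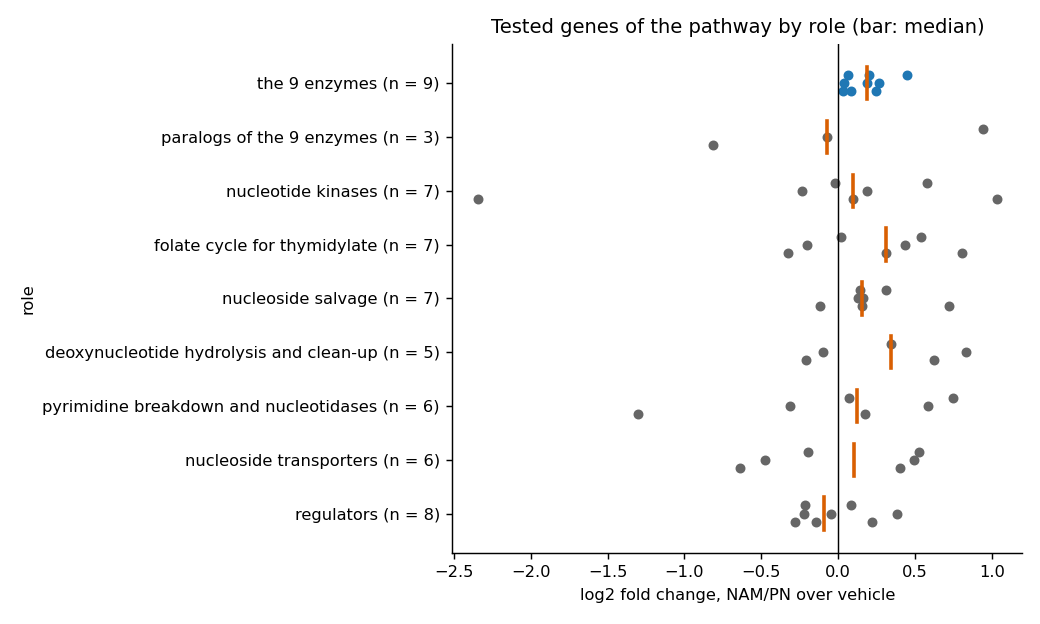
Log2 fold change of each tested gene, grouped by role, with a bar at the median of each group. The 9 enzymes lie between 0.03 and 0.45, and the leftmost gene is Nme2 at -2.34.

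Some enzymes have a paralog with the same activity. Rrm2b, the subunit known for deoxynucleotide supply outside S phase, had 17, 52, 95 and 36 counts in vehicle pools 1 to 4 and 1, 57, 18 and 31 counts with NAM/PN. The log2 ratio of Rrm2 to Rrm2b counts within a library was 6.38 ± 1.196 with vehicle and 7.86 ± 2.43 with NAM/PN (SD, n = 4 each), with an exact permutation p of 0.343. Tk2, the mitochondrial thymidine kinase, had between 8 and 143 counts per library, and the log2 ratio of Tk1 to Tk2 was 5.31 ± 1.79 with vehicle and 5.43 ± 1.31 with NAM/PN (SD, n = 4 each; exact permutation p = 0.886). Ctps2, the other CTP synthase, had 40, 119, 48 and 55 counts with vehicle and 173, 37, 125 and 159 counts with NAM/PN in pools 1 to 4. The log2 ratio of Ctps to Ctps2 was 3.47 ± 0.74 with vehicle and 2.75 ± 0.92 with NAM/PN (SD, n = 4 each; exact permutation p = 0.257), lower in 3 of 4 pools. After Benjamini-Hochberg adjustment over these 3 two-sided comparisons the exact p-values were 0.514, 0.886 and 0.514, and the smallest that 4 libraries against 4 allow is 0.0286.

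Reference genes placed the enzymes among other transcripts of cycling cells. Mki67, the transcript of the proliferation antigen Ki67, averaged 163 ± 23.9 CPM in the 4 vehicle libraries and 168 ± 34.4 CPM in the 4 NAM/PN libraries (SD), with a log2 fold change of 0.04, close to those of Cad and Rrm2. Of 20 genes of DNA replication and S phase entry, 0 were called in edgeR's test (1.28% of all tested genes). Among the 20, 5 had an unadjusted p under 0.05 (9.28% of all tested genes) and 19 were above 0 (49.8% of all tested genes). Their median log2 fold change was 0.33, against 0.19 for the 9 enzymes. Pcna, the sliding clamp of DNA polymerases, had a log2 fold change of 0.40 (adjusted p = 0.743 in edgeR's quasi-likelihood test). Myog, the transcription factor of terminal differentiation, fell by 2.22 on the log2 scale in the same libraries (adjusted p = 0.000232 in edgeR's quasi-likelihood test), and the 95% interval of Myog, from -2.82 to -1.62, lay apart from those of all 9 enzymes.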

How the data were processed

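RNA of cultured aged MuSCs was measured in 8 libraries, whose labels give treatment and pool. Raw, unnormalized counts for each Ensembl gene were deposited by the authors. Per the study's methods, a QuantSeq 3′ kit was used, and reads were demultiplexed with Bcl2FastQ, aligned to GRCm38 with RNASTAR and counted with htseq-count (version 2.16.2 in the submitters' processing notes). The annotation release, strand setting and handling of reads with several alignments are not given in the sources used here. A 3′ kit yields about the same number of reads from long and short transcripts, so counts were not divided by length.

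Counts were analysed in R 4.3.3 with edgeR 4.0.16, filtered with filterByExpr (minimum count 10, minimum total 15), scaled by TMM (trimmed mean of M-values), and tested by the quasi-likelihood test without a block, with Benjamini-Hochberg adjustment and a threshold of 0.05. Ratios were taken after adding 0.5 to counts and compared by two-sided exact permutation tests. Alternatives were the pool as replicate block, DESeq2 1.42.0, limma 3.58.1, RLE size factors, no filter, and leaving out each library or pool. Names and positions came from GENCODE M21 on GRCm38, which held 55141 of 55487 identifiers. The gene test was tested on simulated data.

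The pool numbers pair the conditions, since libraries of a number came from the same mice, although their deviations from the condition means correlated across genes by only -0.0332 to 0.0313. Whether other steps, such as library preparation, were shared is not stated, and p-values measure the spread between these pools. Depth was 6472484 to 10163101 counts per library. The enzymes and lists were chosen with earlier results of these data known. Named genes are the 9 enzymes, their 3 paralogs, called pathway genes, the 2 genes with the smallest p in each role, Mki67, Pcna, Myog and the 5 genes most like the enzymes. Some genes that this rule or the marker lists hold are not reported here. Promoter sequences are from RefSeq.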

Additional observations from a re-analysis of the deposited data

Results flagged for a closer look

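In 26 groups of 4 libraries (the 9 enzymes, their summed level and the 3 paralog ratios in each condition), 1 value stood apart by Dixon's test at the 95% level, and chance gives 1.3. Cad was at 192 CPM in NAM/PN replicate 2 and between 145 and 152 CPM in the other NAM/PN libraries, with a gap to the nearest of 0.855 of the range.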

How the results depend on the processing

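Of the 9 enzymes, 0 were called under each alternative run, with a smallest adjusted p of 0.368 (Umps, without a filter on low counts), and the median log2 fold change stayed between 0.10 and 0.26. Umps, Ctps, Tyms, Dut and Tk1 kept a positive log2 fold change under each alternative, and with a library or pool left out they ranged from 0.21 to 0.56, 0.044 to 0.30, 0.17 to 0.30, 0.13 to 0.42 and 0.10 to 0.31. Dhodh turned to -0.0059 with the replicate block and -0.16 in limma's voom fit. When a library or pool was left out, Cad ranged from -0.075 to 0.079, Dhodh from -0.27 to 0.29, Rrm1 from -0.083 to 0.22 and Rrm2 from -0.023 to 0.14. The count of all genes called was 154 and became 289 in DESeq2, 366 without a filter, 232 in the voom fit and 42 to 177 with a library or pool left out (42, 65 and 94 without pools 2, 1 and 4, 80 and 87 without vehicle replicates 2 and 4, 92 without NAM/PN replicate 1). Pathway genes called went from 0 to 1 without a filter and in the voom fit (Shmt1), and were 0 to 1 with a library or pool left out (Shmt1 or Slc29a1). The replicate block gave 156 genes and changed no call of an enzyme, and with sign changes within pools no ratio can reach a p below 0.125. With a library or pool left out, the difference in log2 ratio was 0.33 to 2.24 for Rrm2 over Rrm2b, -0.65 to 0.79 for Tk1 over Tk2 and -1.46 to -0.30 for Ctps over Ctps2. Leaving out CT010467.1, an alternative chosen after seeing the data, gave a median of 0.18. The causes were not tested.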
